A study of Mus musculus with 4 samples.

Results

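Secreted Wnt antagonists are extracellular proteins that keep Wnt ligands from signaling. Promoter methylation of 10 of their genes (Sfrp1, Sfrp2, Sfrp4, Sfrp5, Frzb, Wif1, Dkk1, Dkk2, Dkk3 and Dkk4) was examined in mouse lung tumors. The genes were chosen by name, and a promoter ran from 1000 bp before to 500 bp after each annotated transcription start site (TSS). A CpG site was used when at least 20 reads covered it in every tumor, and each strand of a CpG counted as a site of its own. By this rule 9 of the 10 genes had promoter data, among 20135 promoters with such sites in the whole data set, and they held 213 of its 1081201 qualified sites. Dkk4 had no qualified site.

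Wnt ligands bind Frizzled receptors together with the co-receptors Lrp5 and Lrp6, and the signal stabilizes beta-catenin, which switches on target genes with Tcf and Lef factors. The Sfrp proteins, the related Frzb and Wif1 bind Wnt ligands outside the cell, whereas Dkk1, Dkk2 and Dkk4 bind Lrp5 and Lrp6 with Kremen proteins as partners. Promoters of several of these genes are frequently methylated in human carcinomas, lung cancer included, and dense methylation of a CpG-rich promoter usually accompanies a silent gene. RNA levels were not analysed here.

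The tumors grew from a metastatic lung adenocarcinoma line of mice with the p53 allele R172HΔg beside a wild-type copy, and their DNA was read by reduced representation bisulfite sequencing (RRBS), a method that samples CpG-rich fragments. The parental line (344SQP) was compared with a line derived from it that had acquired resistance to anti-PD1 (344SQR), with 2 tumors from separate mice in each group. The hosts were female 129Sv/Ev mice, 12 to 16 weeks old, with tumor cells placed under the skin of a leg. Every mouse in both groups received anti-PD1 (10 mg/kg, 4 doses from day 4), and tumors were taken 24 h after the last dose, so untreated tumors are not part of the comparison. Each group stands for a single derived line.

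The files hold 116794455 and 138331886 CpG calls for parental replicates 1 and 2, against 160548303 and 174689402 for resistant replicates 1 and 2. Replicate 2 of the resistant line stands apart, because it lists 6377285 sites against 2695851 to 3772295 in the other tumors. The share of sites with only 1 to 4 reads is 53.4% and 45.7% for the parental line against 62.7% and 66.7% for the resistant line, so it is high in both resistant tumors. None of those thinly read sites enters the values below. At the 213 member sites, the median coverage of a promoter ranged from 70 to 178.5 reads in a tumor, and at the minimum of 20 reads a single read is worth 5 percentage points. DNA came from whole tumors with host cells in them, so a change in methylation and a change in the mix of cells cannot be told apart.

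By the median, these promoters were more methylated than all promoters in the same tumors. The median of the 9 promoters was 15.0% and 23.1% in the parental line, compared with 16.4% and 17.9% in the resistant line, whereas the median of all promoters was 3.12% and 3.34%, and 2.54% and 2.56%. In 7 of the 9 promoters methylation was above 10% in every tumor, compared with 35.5% of all promoters. The means were closer, since the mean of all promoters was 22.9% and 24.5% in parental and 21.8% and 21.6% in resistant tumors, and that of the members was above it only in replicate 2 of each line. Dkk3 had the highest mean in the parental line (57.7%), followed by Sfrp1 (31.1%), Dkk1 (25.2%), Sfrp5 (22.1%), Sfrp2 (21.6%), Frzb (15.9%), Dkk2 (15.1%), Sfrp4 (14.2%) and Wif1 (3.28%). From Sfrp1 to Sfrp4, neighbours in this order differed by less than the SD of the more variable of the pair, whereas Dkk3 and Wif1 lay outside that spread. Dkk3, Sfrp1 and Wif1 held the same places in the resistant line.

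The lines did not move these promoters in a common direction. The mean over the 9 promoters was 17.8% and 28.0% in the parental tumors (22.9% ± 7.21, SD, n = 2) and 21.6% and 27.5% in the resistant tumors (24.5% ± 4.22, SD, n = 2). The resistant tumors lay between the parental ones, and the difference of 1.63 points was far smaller than the spread within a line (two-sided exact permutation p = 1.0, with 0.33 the smallest p that 2 tumors against 2 allow). Over all promoters the corresponding mean fell, from 23.7% to 21.7%. By the median of differences, the members were at −1.08 points and all promoters at −0.233 points. Without replicate 1 of the parental line or replicate 2 of the resistant line, the difference over the 9 promoters turned to −3.47 or −1.36 points.

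The test after the study's methods combines a likelihood ratio for each site into Stouffer's z for a promoter, and takes each read as independent. At a false discovery rate (FDR) under 0.05 over all promoters, 5 of the 9 members were called lower in resistant tumors (Sfrp2, Frzb, Wif1, Dkk1 and Dkk2), against 29.5% of all promoters. Sfrp1 and Dkk3 were called higher, 2 of 9 against 9.03% of all promoters. Sfrp4 and Sfrp5 were not called. The quasi-likelihood test of edgeR, which counts the spread between tumors of a line, called 0 of 9, against 0.0696% of all promoters, and gave 0 of 9 an unadjusted p under 0.05 (8.62% of all promoters). In 2 members, Frzb and Wif1, neither resistant tumor reached the level of a parental one (32.5% of all promoters had that pattern). In 0 of 9 were both resistant tumors higher (7.58% of all promoters).

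**Figure D1:**
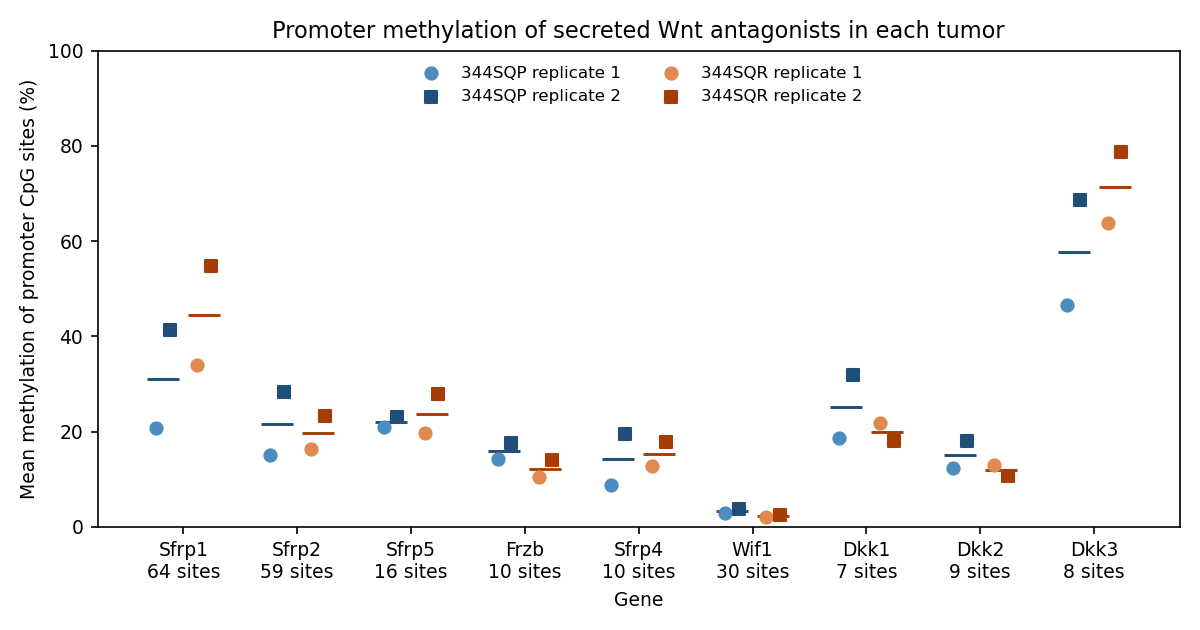
Each point is the mean methylation (%, vertical axis) of the qualified CpG sites of a promoter in a tumor, for 9 genes along the horizontal axis, with circles for replicate 1, squares for replicate 2, blue for 344SQP, orange for 344SQR and a bar for the mean of a line. Sfrp1 and Dkk3 have higher bars in the resistant line but overlapping tumors, and only Frzb and Wif1 have both resistant tumors below both parental tumors.

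At the level of single sites, 38 of the 213 member sites were called lower (18.4% of all qualified sites were) and 53 higher (6.04% of all) in resistant tumors, at an adjusted p under 0.05 in the likelihood ratio test over all sites. Of the higher sites 34 lie in Sfrp1, and of the lower sites 20 lie in Sfrp2. Both directions occurred within the same promoter in Sfrp1, Sfrp2, Sfrp5 and Dkk1. At 36 CpGs of Sfrp1, Sfrp2, Sfrp5 and Wif1 both strands qualified, and the strands gave a difference of the same sign at 26 of them and of opposite sign at 6, with a difference of 0 on a strand at the other 4. Values of the strands in the same tumor lay a median of 3.67 points apart.

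Among the antagonists that bind Wnt ligands, Sfrp1 had the most sites. Sfrp1 (ENSMUSG00000031548) is a secreted Frizzled-related protein and carries a cysteine-rich domain like that of Frizzled receptors. The gene lies on the plus strand of chromosome 8 of GRCm38 (the mm10 build), from 23411502 to 23449632. Its promoter window is rich in CpGs, with 112 of them and an observed to expected ratio of 0.891, and 53 of the CpGs qualified on at least a strand. Methylation over its 64 sites was 20.8% and 41.4% in parental tumors, with 34.1% and 54.9% in their resistant counterparts. Replicate 2 of the resistant line was the highest and replicate 1 of the parental line the lowest, with the remaining tumors of both lines overlapping between them.

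The means of Sfrp1, 31.1% ± 14.6 (SD, n = 2) in parental and 44.5% ± 14.7 (SD, n = 2) in resistant tumors, differed by 13.4 points, less than the SD of either line. The combined z score was 22.7 (FDR = 6.38e-112), and edgeR put the log2 odds ratio at 0.85 with an adjusted p of 0.759. With the replicate number as a block edgeR called Sfrp1 (adjusted p = 3.74e-05), although the numbers are not stated to pair the tumors. The size of this difference depended on every tumor. Without replicate 1 of the parental line it was 3.08 points and without replicate 2 of the resistant line 2.98 points (FDR = 0.44, no longer called), whereas it was 23.7 points without replicate 2 of the parental line and 23.8 points without replicate 1 of the resistant line.

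The increase in Sfrp1 was steadiest in the coding part of exon 1. Over the 23 upstream sites it stood at 16.5% and 37.8% in parental against 25.0% and 48.9% in resistant tumors. At 34 sites of the 5′ untranslated part of exon 1 it was 20.5% and 42.8%, and 35.8% and 56.6%. In both stretches the lines overlapped, and the upstream difference of 9.79 points turned to −0.840 points without parental replicate 1 and −2.16 points without resistant replicate 2. That of the untranslated part, 14.6 points, shrank to 3.39 and 4.19 points in the same settings. The upstream difference also depended on the strand, since 7 upstream CpGs of Sfrp1 read on both strands differed by a mean of 7.39 points on the plus strand and −0.479 points on the minus strand. In the coding part of that exon, with 7 sites of as few as 21 reads, the parental tumors were at 36.6% and 46.6% and the resistant tumors at 55.6% and 66.4%, so here both resistant tumors were higher, by 14.0 to 24.8 points with any single tumor left out. A higher mean in resistant tumors was found at 56 of the 64 sites and a lower mean at 8. All of these sites were read in the same 4 tumors, so they are not separate observations of the lines.

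The largest difference in Sfrp1 at a called site without overlap was at 23411516, 14 bp downstream of the TSS. There 3.90% of 77 reads were methylated in replicate 1 of the parental line (95% Wilson confidence interval 1.33 to 10.8) and 27.0% of 89 reads in replicate 2 (18.8 to 37.0). In the resistant tumors it was 46.0% of 113 reads (37.1 to 55.2) and 60.1% of 143 reads (52.0 to 67.8). The intervals of the lines did not touch, although they cover counting error only, since copies of the same molecule cannot be told apart. Not every site nearby moved this way, since 3 sites of Sfrp1, at 83 bp upstream and at 47 and 62 bp downstream of the TSS, were called lower, by as much as −19.8 points. The opposite strand of the CpG with that value differed by 1.57 points.

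The 130 bases before the Sfrp1 TSS (chr8:23411372-23411501, GRCm38, plus strand) are shown because all 23 upstream sites lie in them, and capitals mark the 16 of 19 CpGs that were measured.
Sfrp1: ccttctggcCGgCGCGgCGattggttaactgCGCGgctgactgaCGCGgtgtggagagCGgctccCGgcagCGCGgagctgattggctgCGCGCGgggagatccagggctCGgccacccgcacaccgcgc

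Sfrp2, a relative of Sfrp1 with the same kind of Wnt-binding domain, had called sites of both directions along its promoter. Sfrp2 (ENSMUSG00000027996, chromosome 3, plus strand, 83766321 to 83774316) had 59 qualified sites. Its mean methylation was 15.0% and 28.2% in the parental line, compared with 16.4% and 23.2% in the resistant line. Both resistant tumors lay between the parental ones. The difference of −1.83 points was called lower by the z score of −9.92 (FDR = 4.50e-22), while edgeR gave an adjusted p of 0.872. It became 4.76 points (called higher) without replicate 2 of the parental line and 1.60 points without replicate 1 of the resistant line, and it was −8.43 and −5.27 points without replicate 1 of the parental and replicate 2 of the resistant line.

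Splitting the sites of Sfrp2 into runs with gaps of at most 50 bp showed where these sites lie. The 11 sites from 363 to 280 bp before the TSS averaged 9.61% and 23.0% in parental tumors, with 24.5% and 32.3% in their resistant counterparts. Both resistant tumors were higher in this run, and 5 of its sites were called higher and 0 lower. In 42 sites from 17 to 203 bp downstream, within the 5′ untranslated part of exon 1, the values were 16.7% and 29.1% against 14.3% and 21.2%. Here 18 sites were called lower and 3 higher, with the lines overlapping in the mean. The difference of this Sfrp2 run, −5.16 points, turned to 1.06 points without parental replicate 2, whereas that of the upstream run stayed above 0 without any single tumor (5.37 to 18.8 points). A run of 4 sites between them, 151 to 105 bp upstream, was at 12.9% and 36.7% in parental and 14.7% and 24.3% in resistant tumors.

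At 83766423, 102 bp downstream of the Sfrp2 TSS, the decrease was largest. Methylation there was 23.2% of 95 reads (Wilson interval 15.8 to 32.6) and 63.2% of 114 reads (54.0 to 71.4) for the parental line. It was 14.6% of 123 reads (9.46 to 21.9) and 15.5% of 129 reads (10.3 to 22.7) for the resistant line. The resistant tumors were alike, and the gap to the parental line came mostly from its replicate 2, since the interval of replicate 1 overlapped both resistant ones. Without replicate 2 of the parental line the difference at this site was −8.09 points (adjusted p = 0.248 in the likelihood ratio test), and without its replicate 1 −48.1 points. The opposite strand of the same CpG, at 83766424 and chosen after its values were seen, was at 27.1% and 66.7% in parental and 17.2% and 20.4% in resistant tumors, the same pattern in other reads.

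**Figure D2:**
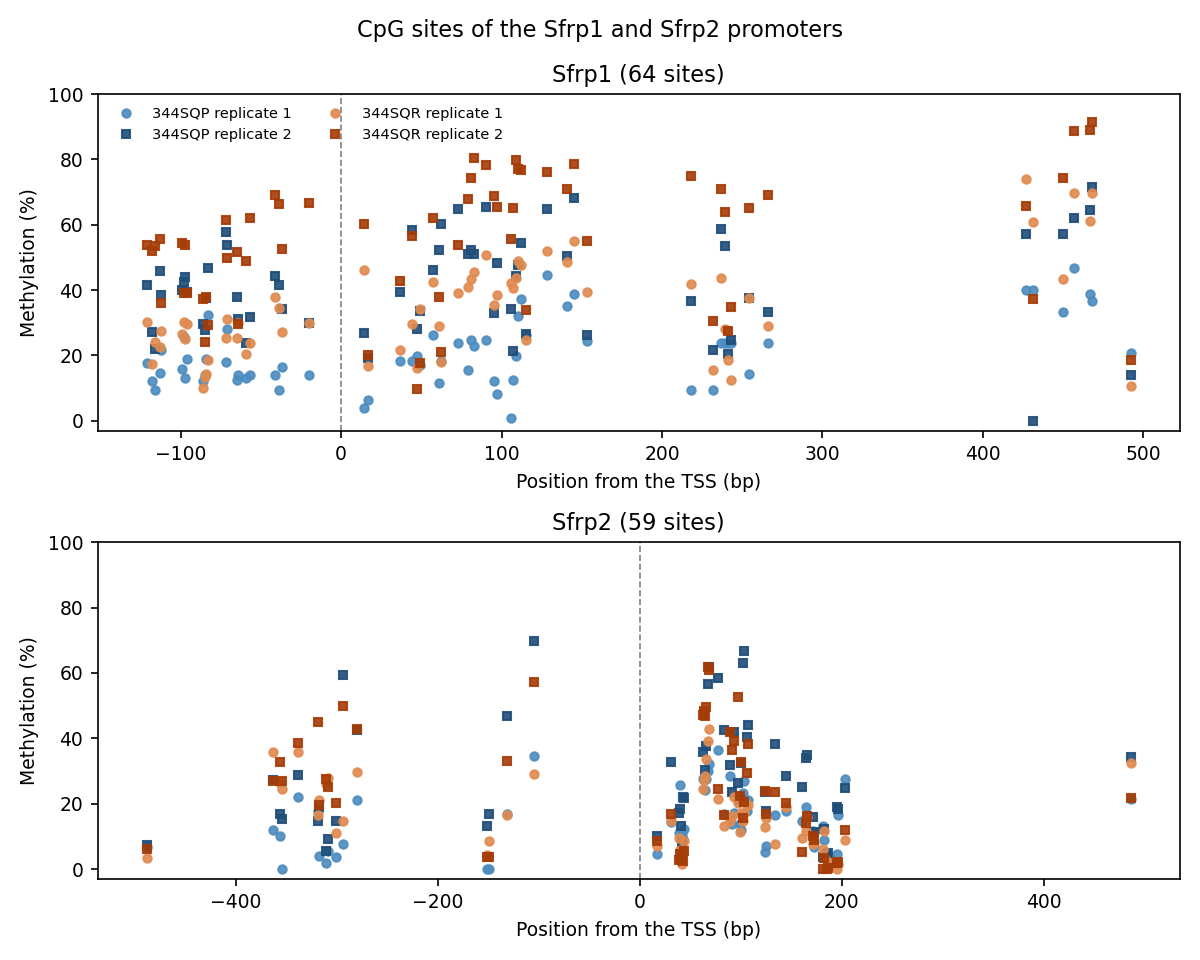
Methylation of every qualified CpG site (%, vertical axis) against its position from the TSS in bp (horizontal axis, dashed line at the TSS) for Sfrp1 (64 sites) and Sfrp2 (59 sites), with 4 points per site for the tumors and symbols as named in the legend. In Sfrp1 replicate 2 of the resistant line is the highest at most sites, and in Sfrp2 the upstream run from 363 to 280 bp contrasts with the run from 17 to 203 bp downstream, where most called sites are lower.

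Sfrp5, another family member that binds Wnt ligands, was not called as a promoter but had called sites of both directions. Sfrp5 (ENSMUSG00000018822, chromosome 19, minus strand, 42197971 to 42202252) had 16 sites, all between 3 bp upstream and 154 bp downstream of the TSS. Its mean methylation was 21.0% and 23.1% in parental against 19.7% and 27.8% in resistant tumors. The resistant tumors lay on either side of the parental ones, the difference was 1.72 points (FDR = 0.845), and edgeR gave an adjusted p of 0.991. It ranged from −2.34 points without replicate 2 of the resistant line to 5.78 points without its replicate 1, and each of these passed the FDR threshold.

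Within those bases of Sfrp5, 5 of the 16 sites were called lower and 4 higher (18.4% and 6.04% of all qualified sites were). Strands of the same CpG did not always share a direction, as only 2 of the 4 Sfrp5 CpGs read on both had the same sign. At the others a site at −16.9 points faced 6.68 points on the opposite strand, and a site at −11.8 points faced 6.54 points. The single site upstream of the TSS, at 42202255, was at 21.1% and 25.8% in parental and 9.87% and 11.0% in resistant tumors. The largest difference was at 42202098, 154 bp downstream in the 5′ untranslated part, with 28.8% of 52 reads (Wilson interval 18.3 to 42.3) and 28.0% of 125 reads (20.9 to 36.4) against 34.3% of 102 reads (25.8 to 43.9) and 61.2% of 134 reads (52.7 to 69.0). Only replicate 2 of the resistant line stood out there, and without it the difference was 5.89 points (adjusted p = 0.565 in the likelihood ratio test), whereas without resistant replicate 1 it was 32.8 points.

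Sfrp4, a member of the same family that binds Wnt ligands, had little difference in its mean. Sfrp4 (ENSMUSG00000021319, chromosome 13, plus strand, 19623104 to 19632994) has 3 annotated TSS, and its 10 sites lie around the upstream pair of them, from 19623088 to 19623261. Its methylation was 8.79% and 19.6% in the parental line, compared with 12.7% and 17.9% in the resistant line, with both resistant tumors between the parental ones. The difference was 1.12 points (FDR = 0.732), and edgeR gave an adjusted p of 0.951. It changed sign with the tumors used, from −4.28 points without replicate 1 of the parental line to 6.52 points without its replicate 2, and was −1.46 points without replicate 2 of the resistant line. With sites of at least 10 reads the Sfrp4 difference was 3.39 points (FDR = 0.278).

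The sites of Sfrp4 fall into a weakly methylated run from 16 bp upstream to 32 bp downstream of the first TSS, with means of 2.62% to 6.61% in the tumors, and a run from 111 to 157 bp downstream. The second run was at 11.7% and 33.8% in parental and 22.9% and 29.2% in resistant tumors. A single Sfrp4 site was called, 145 bp downstream, and it was higher in the mean of the resistant line while its tumors overlapped.

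Frzb, a secreted Wnt-binding protein first described in developing cartilage, was lower in both resistant tumors, but by little and mainly at 1 site. Frzb (ENSMUSG00000027004, chromosome 2, minus strand, 80411970 to 80447625) had 10 sites. Methylation was 14.3% and 17.6% in parental tumors, with 10.5% and 14.0% in their resistant counterparts. Parental replicate 1 and resistant replicate 2 were nearly level without crossing. The means of 15.9% ± 2.33 (SD, n = 2) and 12.2% ± 2.53 (SD, n = 2) differed by −3.68 points, more than the SD of either line, with FDR = 0.00815, and edgeR gave an adjusted p of 0.833. The call was lost without replicate 2 of the parental line (−2.03 points, FDR = 0.322) and without replicate 1 of the resistant line (−1.89 points, FDR = 0.259).

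That Frzb site is at 80448447, 822 bp upstream of the GENCODE TSS and 1051 bp upstream of the RefSeq TSS, from which it would fall outside the promoter window. In the parental tumors 26.4% of 87 reads (Wilson interval 18.3 to 36.6) and 24.1% of 79 reads (16.0 to 34.5) were methylated. In the resistant tumors it was 1% of 100 reads (0.177 to 5.45) and 1.82% of 110 reads (0.500 to 6.39), so the lines were far apart and the tumors of each line alike. It was the only Frzb site called, and its call held under each of the alternatives tried for sites. The neighbouring site at 80448479, chosen after its values were seen, was at 36.8% and 61.8% in parental and 33.3% and 55.3% in resistant tumors, where the tumors of the lines overlapped. Over the 5 Frzb sites in the 5′ untranslated part, the mean of every tumor was between 3.80% and 4.77%.

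Wif1, which holds Wnt ligands through a WIF domain unlike that of the Sfrp family, was almost unmethylated in all tumors. Wif1 (ENSMUSG00000020218, chromosome 10, plus strand, 121033960 to 121100650) has 2 annotated TSS, and its 30 sites had a mean of 2.85% and 3.70% in parental against 1.97% and 2.42% in resistant tumors. Both resistant tumors were lower, and the means of 3.28% ± 0.599 (SD, n = 2) and 2.20% ± 0.321 (SD, n = 2) differed by −1.08 points (FDR = 0.0109). With edgeR the unadjusted p was 0.0808, the smallest among the members, and the adjusted p was 0.633. Without replicate 2 of the parental line the call was lost (−0.657 points, FDR = 0.549).

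At 10 of the 30 Wif1 sites no methylated read was seen in any tumor, and 21 sites stayed under 5% in every tumor. Near the coding start methylation was higher, with 5 sites of the coding part at 6.78% and 8.69% in parental and 5.0% and 5.63% in resistant tumors. The largest difference was at 121033908, 52 bp upstream of the first TSS, where 14.9% of 101 reads (Wilson interval 9.21 to 23.1) and 11.7% of 94 reads (6.66 to 19.8) were methylated in parental tumors. The resistant tumors had 7.88% of 165 reads (4.66 to 13.0) and 1.85% of 108 reads (0.509 to 6.50). The interval of resistant replicate 1 overlapped both parental ones. On the opposite strand of this Wif1 CpG the parental tumors were at 2.74% and 11.5% and the resistant tumors at 3.23% and 1.43%, where the lines overlapped. The site was not called without parental replicate 1 (−6.84 points, adjusted p = 0.167) or without resistant replicate 2 (−5.40 points, adjusted p = 0.294, both in the likelihood ratio test).

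Among the antagonists that act at the co-receptor, Dkk1 is the best known, and it removes Lrp5 and Lrp6 from Wnt signaling. Dkk1 (ENSMUSG00000024868, chromosome 19, minus strand, 30545863 to 30549665) had 7 sites, all downstream of the GENCODE TSS, although RefSeq starts the gene 169 bp later and puts the first of them 101 bp upstream. Methylation was 18.6% and 31.8% in the parental line, compared with 21.8% and 17.9% in the resistant line. Replicate 2 of the parental line stood above the other tumors, which were close together. The difference of −5.35 points (FDR = 0.000167) was smaller than the SD of the parental line (9.34), and edgeR gave an adjusted p of 0.905. Without replicate 2 of the parental line it was 1.26 points (FDR = 0.74), without replicate 1 of that line −11.9 points, and without replicate 2 of the resistant line −3.43 points (FDR = 0.135). With sites of at least 10 reads it was 0.658 points (FDR = 0.239).

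Neighbouring Dkk1 sites in the coding part of exon 1 went in opposite directions, a pattern that the promoter mean hides. At 30549256 and 30549254, which are 409 and 411 bp downstream of the TSS, the parental tumors were at 16.4% and 16.1%, and 15.3% and 23.9%. The resistant tumors were at 30.2% and 32.0%, and 29.1% and 32.0%, above both parental tumors at each site. At 30549209, 456 bp downstream and the largest difference without overlap, the order was the reverse.

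At that Dkk1 site 20% of 110 reads (Wilson interval 13.6 to 28.4) and 40.8% of 142 reads (33.1 to 49.1) were methylated in parental tumors. Resistant tumors had 13.6% of 147 reads (8.98 to 20.1) and 8.05% of 174 reads (4.85 to 13.1). The intervals of replicate 1 of both lines overlapped, and without replicate 2 of the parental line the difference was −9.17 points (adjusted p = 0.0647 in the likelihood ratio test), whereas it was −30.0 points without its replicate 1. The site between them at 30549233 was at 19.8% and 52.4% in parental and 24.2% and 8.43% in resistant tumors, so there the lines overlapped.

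The coding stretch that holds these 4 Dkk1 sites (chr19:30549200-30549266, GRCm38, minus strand, written in the direction of the gene) shows how close sites of opposite direction lie. Capitals mark the 4 measured CpGs, with the pair that was higher in resistant tumors on the left. The sites other than 30549209 were chosen after their values were seen.
Dkk1: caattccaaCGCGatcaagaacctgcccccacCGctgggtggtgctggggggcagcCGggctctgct

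Dkk2, which also binds Lrp6 and can block or support the signal depending on Kremen proteins, was called lower with overlapping tumors. Dkk2 (ENSMUSG00000028031, chromosome 3, plus strand, 132085292 to 132180304) had 9 sites, with a mean of 12.4% and 17.9% in parental tumors, with 13.0% and 10.7% in their resistant counterparts. Replicate 1 of both lines was nearly level, and the lines overlapped. The difference of −3.28 points (FDR = 1.94e-08) was within the SD of the parental line (3.94), and edgeR gave an adjusted p of 0.804. Without replicate 2 of the parental line it was −0.488 points (FDR = 0.183), and it was −6.07 points without replicate 1 of that line and −2.12 points without replicate 2 of the resistant line.

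The called sites of Dkk2 all lie after the TSS. In 5 sites 938 to 891 bp upstream the tumors were at 14.2% and 18.7% (parental) and 18.3% and 13.6% (resistant), with 0 called and sites differing in both directions. In 4 sites of the 5′ untranslated part they were at 10.0% and 16.9% against 6.39% and 7.08%, and both resistant tumors were lower. At 132085481, 189 bp downstream, 5.64% of 195 reads (Wilson interval 3.18 to 9.82) and 13.0% of 239 reads (9.29 to 17.8) were methylated in the parental tumors. In the resistant tumors it was 1.65% of 242 reads (0.645 to 4.17) and 1.46% of 274 reads (0.569 to 3.69). The intervals of replicate 1 of both lines overlapped. The call at this Dkk2 site held under each of the alternatives tried for sites, although its difference of −7.75 points was −4.08 points without parental replicate 2.

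Dkk3 is the divergent member of the Dickkopf family, with little or no binding to the co-receptors, and is described as a tumor suppressor that is often silenced in carcinomas. Dkk3 (ENSMUSG00000030772, chromosome 7, minus strand, 112116017 to 112159057) was the most methylated promoter of the list, although its window holds only 39 CpGs, of which 8 qualified. Methylation over 8 sites was 46.6% and 68.7% in parental against 63.9% and 78.8% in resistant tumors. As in Sfrp1, replicate 1 of the parental line was the lowest, replicate 2 of the resistant line the highest, and the lines overlapped.

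The Dkk3 means of 57.7% ± 15.6 (SD, n = 2) and 71.3% ± 10.5 (SD, n = 2) differed by 13.6 points, less than the SD of the parental line. The z score was 7.99 (FDR = 1.15e-14), and edgeR gave a log2 ratio of odds of 0.79 with an adjusted p of 0.795. The call was lost without replicate 1 of the parental line (2.59 points, FDR = 0.48) and without replicate 2 of the resistant line (6.18 points, FDR = 0.0706). The difference grew to 24.7 points without replicate 2 of the parental line and 21.1 points without replicate 1 of the resistant line.

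Within Dkk3 the difference was larger downstream than upstream of the TSS. At 2 sites in the first intron, 391 and 412 bp downstream, the tumors were at 40.9% and 57.2% (parental) and 62.7% and 83.1% (resistant), and both resistant tumors were higher. That difference of 23.8 points was 13.6 points without resistant replicate 2 and 15.7 points without parental replicate 1. At 4 sites upstream they were at 50.9% and 77.8%, and 66.4% and 76.1%, where the lines overlapped and the difference of 6.92 points turned to −6.53 points without parental replicate 1 and shrank to 2.05 points without resistant replicate 2. The largest single difference was at 112159014, 43 bp downstream in the 5′ untranslated part. There 40.6% of 101 reads (Wilson interval 31.5 to 50.3) and 58.7% of 104 reads (49.0 to 67.6) were methylated in parental tumors. Resistant tumors had 65.9% of 138 reads (57.7 to 73.3) and 84.7% of 144 reads (78.0 to 89.7). Replicate 2 of the parental and replicate 1 of the resistant line were close there, with overlapping intervals. The difference of 25.7 points at this Dkk3 site was 16.7 points without parental replicate 1 and 16.3 points without resistant replicate 2, and stayed called in both.

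The 90 bases before the Dkk3 TSS (chr7:112159058-112159147, GRCm38, minus strand, in the direction of the gene) are shown for contrast with Sfrp1, since they hold 8 CpGs where the Sfrp1 stretch holds 19. Capitals mark the 4 CpGs that were measured.
Dkk3: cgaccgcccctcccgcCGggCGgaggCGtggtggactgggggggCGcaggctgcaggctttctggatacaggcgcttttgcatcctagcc

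Dkk4, which binds Lrp6 like Dkk1, could not be compared. Dkk4 (ENSMUSG00000031535, chromosome 8, plus strand, 22624043 to 22627547) has a promoter window with only 20 CpGs, an observed to expected ratio of 0.254 and 1 copy of CCGG, the letters cut by MspI, the usual enzyme of RRBS (the enzyme is not given in the sources used here). The windows of the other members hold 3 to 12 copies, and 72.2% of all genes have at least 1 in their promoter windows. The files list 9 sites in the Dkk4 window, with at most 5 reads at any of them in a tumor, so its methylation was not measurable at this depth.

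**Figure D3:**
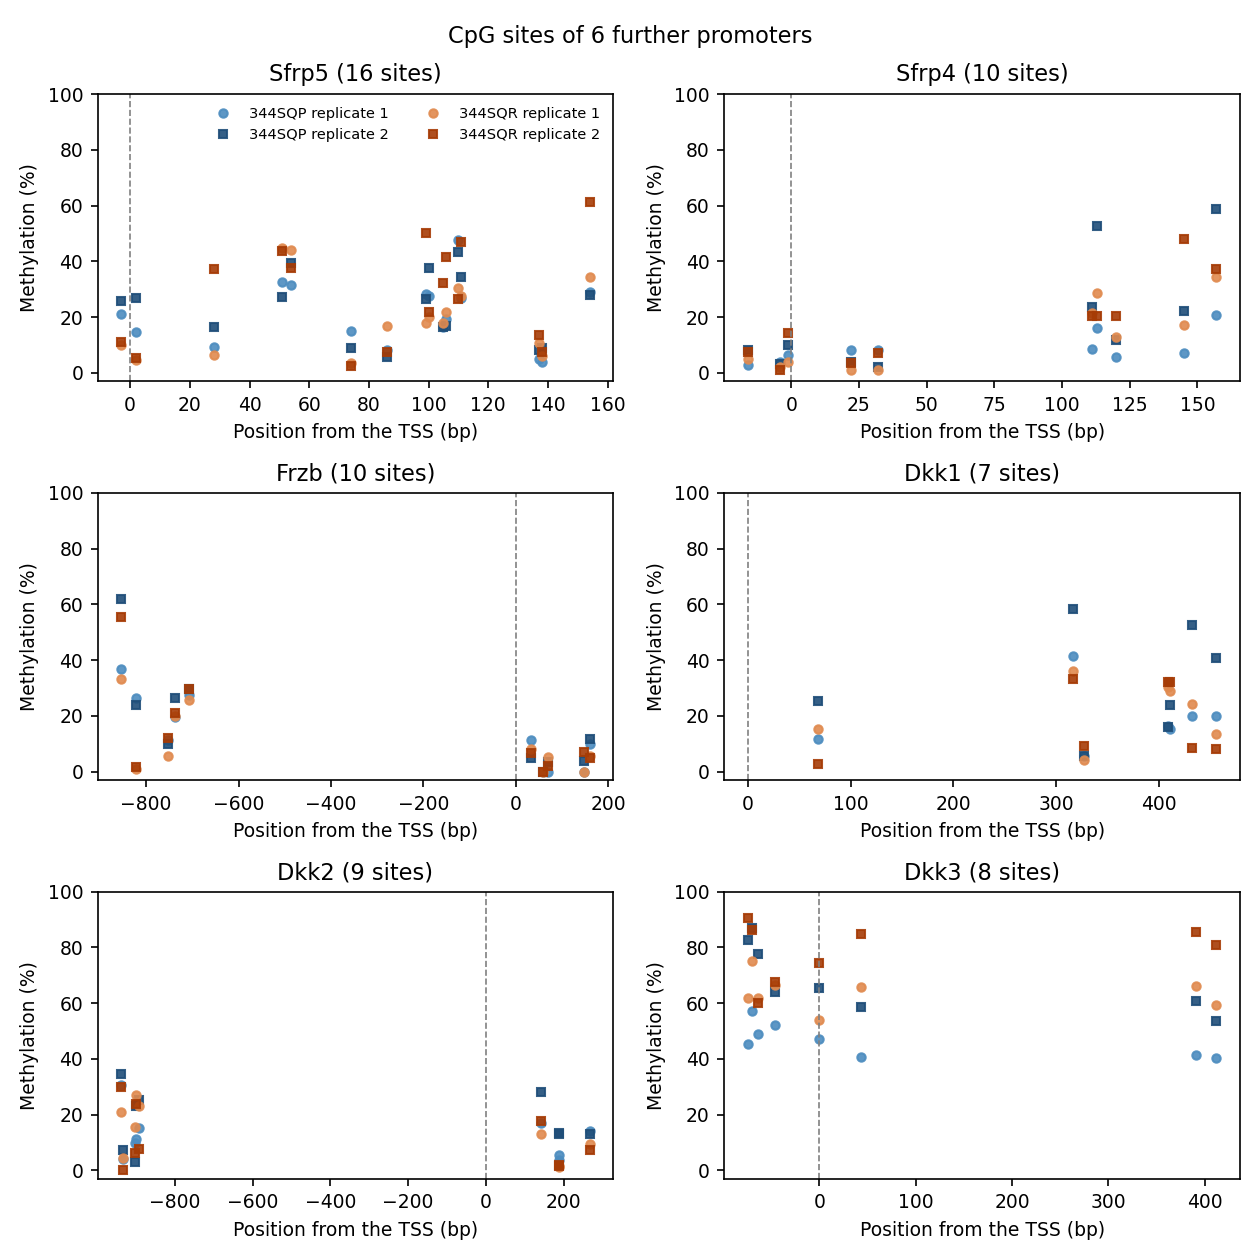
Methylation of every qualified CpG site (%, vertical axis) against its position from the TSS in bp (horizontal axis, dashed line at the TSS) for Sfrp5, Sfrp4, Frzb, Dkk1, Dkk2 and Dkk3, with 4 points per site for the tumors and symbols as named in the first panel. The Frzb site 822 bp upstream separates the lines, with almost no methylation in resistant tumors (1% and 1.82%), and Dkk3 is above 40% in every tumor at every site.

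Outside the promoter windows the members showed mostly lower or similar methylation in resistant tumors, as a description without a test. The mean over all qualified sites of the data set was also lower, at 31.0% and 32.7% in parental and 29.4% and 29.1% in resistant tumors. The mean difference over 6 gene bodies was −1.94 points, and 1.67 points without parental replicate 2 and 0.396 points without resistant replicate 1. It was −5.55 points without parental replicate 1 and −4.28 points without resistant replicate 2. Over the 4 kb upstream of the windows of 5 members it was −6.28 points, and −12.1 to −0.511 points with a tumor left out. Each member weighs the same in that upstream mean, from −13.1 points in Dkk4 to −0.176 points in Sfrp4, and Sfrp5 rests on 1 site. Over 36 sites in the gene body of Sfrp1, from 23412129 to 23433476, methylation was 51.7% and 67.6% in the parental line, compared with 48.9% and 53.7% in the resistant line, a difference of −8.33 points with overlap. Without parental replicate 2 the Sfrp1 gene body differed by only −0.399 points. Over 28 sites in the gene body of Dkk3 the values were 43.3% and 47.6% against 44.5% and 47.4%, so the tumors were alike there. In 26 sites of the Frzb gene body both resistant tumors were lower (46.8% and 50.4% against 43.7% and 42.6%). In Dkk1, 11 sites from 30548796 to 30548875 were at 34.5% and 52.0% in parental and 42.1% and 61.7% in resistant tumors, 8.66 points higher with overlap. That Dkk1 difference turned to −0.0762 points without parental replicate 1 and −1.18 points without resistant replicate 2.

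Over 20 sites of the Sfrp2 gene body the parental tumors were at 24.1% and 38.2% and the resistant tumors at 25.2% and 30.2%, the same order of tumors as in its promoter. In the 4 kb before the Sfrp2 promoter window, 13 sites were at 62.3% and 54.9% in parental and 53.5% and 46.3% in resistant tumors, with both resistant tumors lower. Wif1, almost unmethylated at its promoter, was highly methylated on both sides, at 94.0% to 99.1% in 6 sites upstream and 74.3% to 86.3% in 6 sites of the gene body. The only values near Dkk4 came from 6 sites in the 4 kb upstream of its window, from 22620355 to 22620702, at 81.5% and 67.7% in the parental and 74.9% and 48.2% in the resistant tumors, where the lines overlapped.

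The order of the tumors was the same in Sfrp1 and Dkk3, and it followed a measure of the samples themselves. The share of CpG calls on chromosome X was 1.59% and 1.28% in the parental replicates 1 and 2, against 1.51% and 1.18% in the resistant ones, and the share on chromosome Y was 0.0406%, 0.0254%, 0.0555% and 0.0178% in the same order, in tumors grown in female hosts. Methylation of Sfrp1 and Dkk3 rose exactly as the share of chromosome X fell over the 4 tumors, a pattern found in 8.20% of all promoters and in 9 of the 75 other Wnt pathway genes measured, Ror2 and Fzd10 among them. The reverse, a fall as that share fell, was found in 6.78% of all promoters, 6 of the 75 genes and 0 of 9 members. Chromosome Y ordered the tumors differently, with resistant replicate 1 highest. In all 9 members replicate 2 was above replicate 1 in the parental line (57.0% of all promoters), and in 7 of 9 in the resistant line (53.2%). The part of the cell mix in these differences was not tested.

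Promoters of marker genes of other cell types gave only thin data, to be read against the 29.5% of all promoters called lower and 9.03% called higher. Of 10 leukocyte markers 3 had qualified sites, with 2 called lower and 0 higher, a median difference of −12.7 points and a mean of 50.7% and 45.1% in parental and 47.1% and 31.6% in resistant tumors. Of 8 fibroblast markers 4 were measured (1 lower, 1 higher, median −4.57 points, mean 38.1% and 44.8%, and 34.8% and 42.4%). Of 6 endothelial markers 4 were measured (1 lower, 1 higher, median −5.79 points, mean 39.1% and 55.1%, and 30.7% and 54.9%). Without resistant replicate 1 all 4 endothelial markers were higher in the resistant line, by 2.10 to 16.0 points. Without resistant replicate 2 Pecam1, Tie1 and Esam differed by −34.0, −27.6 and −4.21 points, and Kdr by 0.507 points. Pecam1 and Tie1 had 1 site each. Of 6 skeletal muscle markers 5 were measured (2 lower, 1 higher, median −2.50 points, mean 41.4% and 42.7%, and 36.7% and 35.0%). Of 8 epithelial markers 7 were measured (3 lower, 0 higher, median −0.349 points, mean 13.6% and 12.2%, and 12.7% and 9.64%). Of 6 lung lineage markers only Nkx2-1 was measured, called higher at 9.87% and 14.5% in parental and 12.7% and 18.7% in resistant tumors. Among the 24 measured markers 4 had the same order of tumors as Sfrp1 and Dkk3, and they belong to 4 different lists (Pdgfra of fibroblasts, Kdr of endothelium, Des of muscle and Nkx2-1 of lung).

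The median promoter of the wider Wnt pathway was less methylated than that of the secreted antagonists. Of 81 other pathway genes 75 were measured, with a median promoter of 4.32% and 4.01% in parental and 3.43% and 3.0% in resistant tumors. In the likelihood ratio test 25 were called lower and 10 higher (29.5% and 9.03% of all promoters were), with a median difference of −0.253 points. edgeR called 0 of 75, with 8 at an unadjusted p under 0.05 (8.62% of all promoters). Other extracellular inhibitors had 2 of 7 lower and 0 higher (median −0.499 points), and the Wnt ligands 7 of 17 lower and 5 higher (median −0.427 points). The median ligand gene turned to 0.846 points without parental replicate 2 and 2.35 points without resistant replicate 1. Genes of Wnt secretion and R-spondins had 2 of 6 lower and 2 higher (median 0.102 points). That sign also depended on single tumors, since Rspo1 and Rspo2 turned to −2.62 and −5.04 points without parental replicate 1. Receptors and co-receptors had 5 of 20 lower and 2 higher (median −0.216 points). Cytoplasmic inhibitors had 6 of 13 lower and 0 higher (median −0.312 points), and transducers and nuclear effectors 3 of 12 lower and 1 higher (median −0.118 points).

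Among pathway promoters with at least 5 sites, 4 of 71 were called and differed by at least 5 points without overlap between the lines, against 8.45% of all promoters with as many sites. A Wnt ligand gene with only 2 sites, too few for this rule, differed by −24.7 points, and by −8.38 points without resistant replicate 2. The receptor gene Ror2 was higher by 11.5 points with overlapping tumors, and by 2.01 points without resistant replicate 2. Fzd10, another receptor gene, was higher by 7.01 points with overlapping tumors, which turned to −6.30 points without parental replicate 1 and −8.37 points without resistant replicate 2. Rspo3, a secreted R-spondin that strengthens Wnt signals, was at 6.55% and 8.74% in parental and 11.9% and 14.1% in resistant tumors over 36 sites, the only one of these 4 that was higher. The Frizzled receptor gene Fzd9 was at 17.2% and 28.4% against 15.1% and 15.3% over 77 sites, and without replicate 2 of the parental line its difference of −7.52 points was −1.92 points (FDR = 0.147), and without replicate 1 it was −13.1 points. Nkd2, an inhibitor that binds Dishevelled, was at 9.56% and 14.2% against 3.73% and 4.78% over 30 sites. Dact1, another partner of Dishevelled, was at 12.5% and 16.7% against 5.36% and 9.51% over 89 sites, and its difference of −7.19 points shrank to −3.89 points with at least 10 reads and −4.09 points with the strands of a CpG added. The adjusted p from edgeR was 0.626 for Rspo3, 0.713 for Fzd9, 0.375 for Nkd2 and 0.392 for Dact1. With the replicate number as a block edgeR called these 4, at 0.0446, 0.00316, 7.35e-06 and 6.56e-12 in the same order. The numbers are not stated to pair the tumors, and the share of all promoters called with the block is not given here.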

How the data were processed

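Methylation was measured by RRBS in 4 tumors, 2 per line. The authors trimmed reads with Trim Galore 0.4.1 and cutadapt 1.9.1, mapped them to mm10 with Bismark and Bowtie 1.1.2, and deposited methylKit tables giving for each CpG and strand its read count (coverage) with methylated and unmethylated percent. Methylated reads were recomputed as coverage times percent, rounded. A site needed at least 20 reads in every tumor. Promoters came from GENCODE M21, with windows of all TSS joined. A promoter's value is the mean of its site percentages, and its direction is the sign of the difference between line means. Each site got a likelihood ratio test in a logistic model (smallest p 2.2e-16), which was combined by signed Stouffer's z, and adjusted by Benjamini-Hochberg over all promoters or all sites. edgeR 4.0.16 in R 4.3.3 tested methylated and unmethylated counts per promoter. Python 3.11.15, numpy 2.4.6, scipy 1.17.1, pandas 2.3.3 and pysam 0.24.0 were used, and the scripts were tested on simulated data. Of 20000 qualified sites drawn at random, 20000 lie on a CpG of the RefSeq GRCm38.p6 genome, from which the printed sequences were read. Named were all members, for each member the called site without overlap with the largest difference, and of each pathway list at most 2 promoters per direction with at least 5 sites, FDR under 0.05, no overlap and a difference of 5 points or more. Ror2 and Fzd10, whose tumors overlap between the lines, do not meet this rule and were named in addition to it. The members and lists were chosen with earlier results of these data known. Alternatives were a minimum of 10 or 50 reads, strands added, each tumor left out, the 5′ TSS only, pooled reads, edgeR, Fisher's exact test and replicate blocks.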

Additional observations from a re-analysis of the deposited data

How the results depend on the processing

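The counts of called members depended on the tumors and on the test. Leaving out a tumor gave 0 to 5 member promoters lower and 0 to 4 higher, 13 to 55 sites lower and 16 to 77 higher, and a mean difference over the members of −3.47 to 6.72 points. Promoter differences that changed sign ranged from −8.43 to 4.76 points for Sfrp2, −4.28 to 6.52 for Sfrp4, −2.34 to 5.78 for Sfrp5 and −11.9 to 1.26 for Dkk1, and Dkk1 was at 0.658 points with at least 10 reads. Without replicate 1 of the resistant line, Sfrp2 had a higher mean but a z score of the opposite sign. edgeR called 0 member promoters lower, 0 higher and 0 of the pathway lists. The cause of these changes was not tested. The replicate numbers are not stated to pair the tumors, and deviations of same-numbered tumors correlated across promoters (r = 0.663, promoters not being independent). With the replicate block, edgeR called 0 members lower, 1 higher (Sfrp1) and 15 pathway promoters, and the Mantel-Haenszel test 5, 2 and 33, with 38 sites lower and 56 higher. The shares of all promoters and sites called with a block are not given here, so these counts cannot be set against them. Minimums of 10 or 50 reads, added strands and the 5′ TSS kept the counts within 1.5 times the main ones and the direction of the mean, as did Fisher's exact test for counts of sites and pooled reads for the mean. With 2 tumors per line and single sites at 21 to 285 reads, differences of a few points cannot be resolved.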
